A study of Drosophila melanogaster with 3 samples.

Results

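The intervals described here are the wide ones among the called binding intervals of Aubergine (Aub), those of 50 nt or more between start and end. They were selected on their measured width alone, from 3 interval lists, with repeats of the same position and strand within a library counted once. They number 2052 of 51495 distinct intervals (3.98%), 27 of 3986 in replicate 1, 1932 of 35824 in replicate 2 and 93 of 11685 in replicate 3. The other 49443 intervals, under 50 nt, are called narrow. The lists come from iCLIP, a method that crosslinks proteins to RNA with ultraviolet light, purifies the protein of interest and sequences the RNA that comes with it. All 3 libraries were made from cultured Drosophila melanogaster germline stem cells with 1 genotype and no drug treatment, so they form a single group. There was no control among the libraries used here. The cells carried UASp-GFP-aub/+, which puts GFP-tagged Aub under a GAL4-responsive promoter, together with nos-gal4 bam∆86, in which the nos promoter drives GAL4 in the germline. The homologous chromosome was bam∆86hs-bam, with a bam allele and a heat-shock bam transgene. The tagged protein was thus made from a transgene, in cells that a bam mutation keeps from differentiating. Dishes of 150 mm received 150 mJ/cm2 of light at 254 nm. Separate cultures are not stated in the labels, and the p-values and SDs below may therefore measure technical spread alone.

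Aub is a Piwi-family Argonaute protein of the germline. It binds piRNAs, small RNAs that guide the cleavage of transposon transcripts, and in the embryo and germline it also binds messenger RNAs. Germline stem cells divide to renew themselves and to give daughters that differentiate, a step that requires bam. A called interval is a stretch of RNA that the authors' procedure reported as bound. Its width is not taken here as a measure of how strongly a site is bound. The deposited lists hold no height or p-value for any interval.

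Width chose the members, so the numbers and widths of wide intervals are described without a test. The most frequent width was 25 nt in each library, held by 52.01%, 8.98% and 47.5% of the intervals of replicates 1, 2 and 3. Wide intervals made up 0.677% of replicate 1 (95% Wilson interval 0.466 to 0.984), 5.39% of replicate 2 (5.16 to 5.63) and 0.796% of replicate 3 (0.650 to 0.974). Replicate 2 thus stood apart and supplied 94.2% of all wide intervals. It held 71.6 times as many as replicate 1 but 8.99 times as many intervals in all, and it was also the library with the most very short ones, 40.9% under 10 nt against 14.5% and 19.1% in replicates 1 and 3.

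The wide intervals themselves were mostly not far above the threshold. Their median width was 55, 63 and 58 nt in replicates 1, 2 and 3, with quartiles of 50.5 to 64.5, 55 to 79 and 52 to 66 nt. The widest measured 126, 285 and 165 nt. At least 100 nt were reached by 2, 221 and 2 intervals. Just inside the threshold, 13, 279 and 25 intervals were 50 to 52 nt wide, and just outside it 21, 353 and 38 were 47 to 49 nt wide, so the threshold falls in a declining tail. Wide intervals covered 2.04%, 21.5% and 2.47% of the nucleotides of the libraries.

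**Figure D1:**
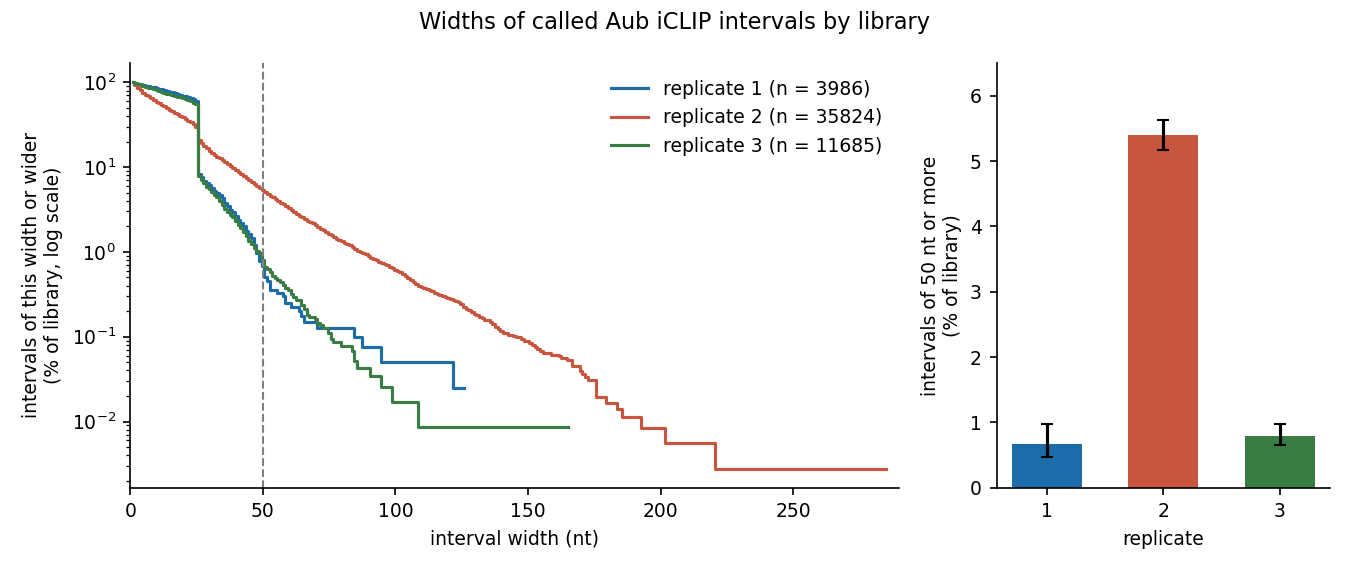
Left, share of each library's intervals that are at least as wide as the value on the x axis (nt, y axis logarithmic), with a dashed line at 50 nt. Right, percentage of intervals of 50 nt or more with 95% Wilson intervals, 0.677%, 5.39% and 0.796% in replicates 1, 2 and 3. All curves drop at 25 nt, and replicate 2 has the heaviest tail.

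Wide intervals of all libraries, joined where they lay within 10 nt on the same strand, formed 1886 regions. Of these, 9 regions in 8 genes held a wide interval in all 3 libraries, 81 in at least 2, and 1783 in replicate 2 alone. Replicate 2 supplied 94.2% of all wide intervals, and these counts have no background from narrow intervals. The 9 regions were 65 to 182 nt long. Positions are 1-based on the dm3 build, genes are given by their FlyBase identifiers because the files pair them with no symbols, and the transcript part was not analysed here.

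The region of FBgn0259240, on the plus strand of X at chrX:12098172-12098236, was the most alike in the libraries, with widths of 65, 65 and 62 nt in replicates 1, 2 and 3. Its intervals ended at the same nucleotide in all libraries, and those of replicates 1 and 2 also began at the same one. In FBgn0262582, on the plus strand at chr3R:16079426-16079495, the widths were 70, 64 and 66 nt, again with 1 common 3′ end. FBgn0051044 held 2 such regions only a short way apart on the plus strand of 3R. The first, at chr3R:25040557-25040649, had widths of 58, 93 and 65 nt, and the second, at chr3R:25040695-25040773, of 64, 77 and 53 nt. In both, neither end was common to all libraries.

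In 4 further regions replicate 2 held the longest interval by a wide margin. FBgn0264357 at chr3R:16983200-16983371 (plus strand) measured 55, 172 and 52 nt, with 34 nt common to the 3. FBgn0264090 at chrX:18824836-18825001 (plus strand) measured 126, 166 and 54 nt, each shorter interval lying inside the longer ones. FBgn0041604 at chr3L:14625810-14625912 (plus strand) measured 63, 103 and 51 nt. FBgn0000504 at chr3R:3788140-3788321 (minus strand) had 51 nt in replicate 1, 175 nt in replicate 2 and a pair of intervals of 85 and 52 nt in replicate 3. The last region, of FBgn0000064 on the minus strand at chr3R:22080427-22080511, was of similar width in the libraries, with 58, 72 and 66 nt, of which 39 nt were common.

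**Figure D2:**
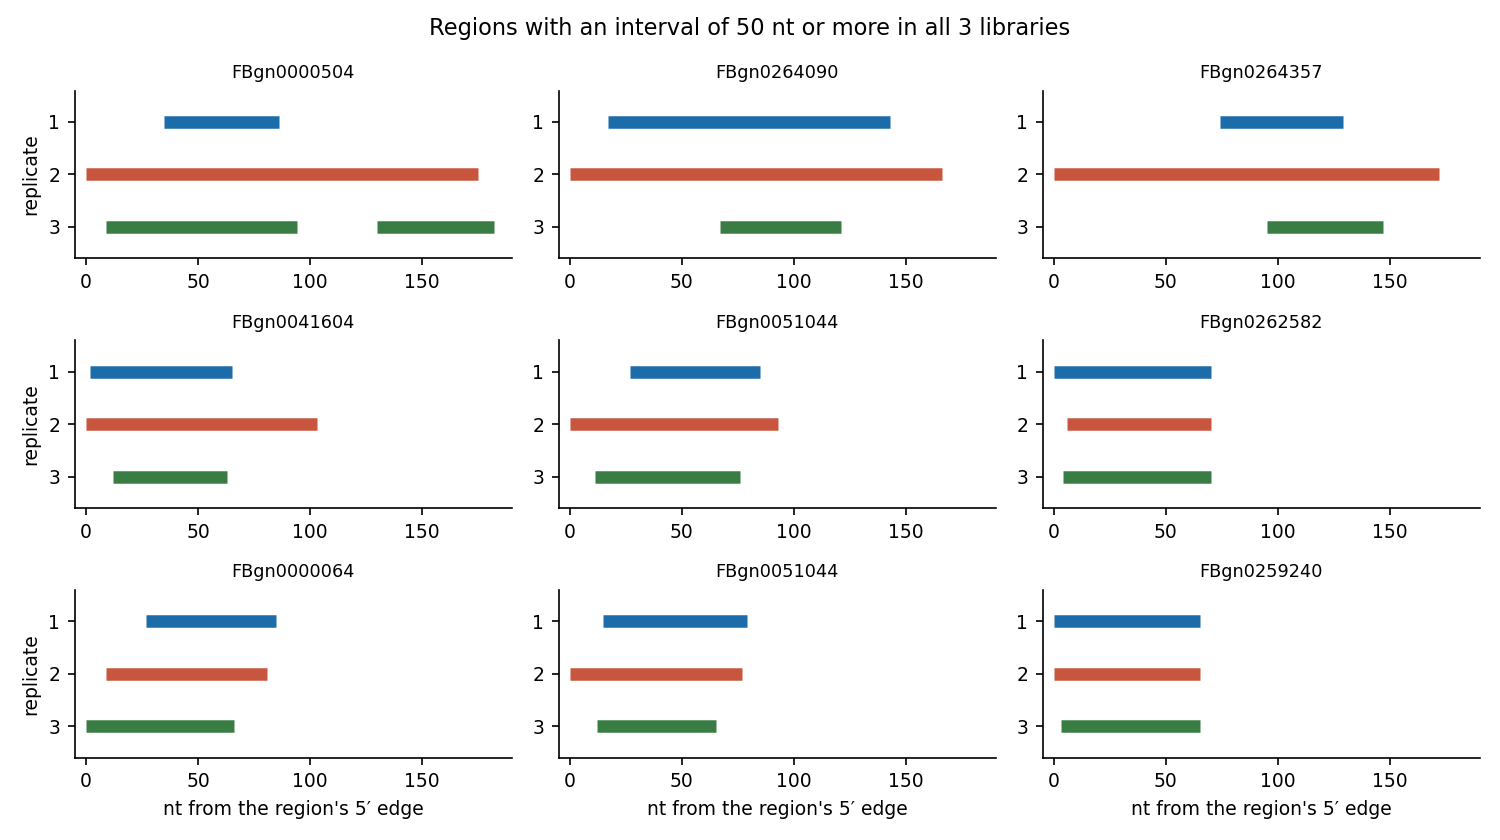
The 9 regions with a wide interval in all 3 libraries. Each bar is a wide interval, drawn to scale from the 5′ edge of its region (nt, x axis) in replicates 1 to 3 (y axis, and colours), and the 2 panels of FBgn0051044 are its 2 regions. The bars of FBgn0259240 and FBgn0262582 end at a common 3′ edge, and replicate 2 has the longest bar in 7 of the 9 panels.

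The next question was whether wide intervals marked positions that other libraries also hold. They did so more often than narrow ones in each of the 6 ordered pairs of libraries. An interval counted as recurring when an interval of any width in the other library lay within 10 nt on the same strand. In replicate 1, 25 of 27 wide intervals recurred in replicate 2 (92.6%, 95% Wilson interval 76.6 to 97.9) and 25 of 27 in replicate 3. The background over all intervals of replicate 1 was 59.9% and 33%, and narrow intervals gave 59.7% and 32.6%.

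In replicate 2, 755 of 1932 wide intervals recurred in replicate 1 (39.1%, 36.9 to 41.3), where the background was 7.6% and narrow intervals gave 5.81%. A further search in replicate 3 found 1186 (61.4%, 59.2 to 63.5), against a background of 17% and 14.5% for narrow ones. In replicate 3, 71 of 93 recurred in replicate 1 (76.3%, 66.8 to 83.8), against a background of 12% and 11.4% for narrow ones. In replicate 2 the count was 87 of 93 (93.5%, 86.6 to 97.0), against 46.6% and 46.2%. No Wilson interval of the wide class overlapped that of the narrow class of the same pair.

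Most wide intervals of replicates 1 and 3 were found in both other libraries. They numbered 24 of 27 in replicate 1 (88.9%, background 30%) and 69 of 93 in replicate 3 (74.2%, background 10.9%). In replicate 2 the number was 574 of 1932 (29.7%, background 3.6%), and 565 (29.2%) recurred in neither, against 81.8% of narrow ones. The 574 had a median width of 71 nt and the 565 one of 59 nt.

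Averaged over the 2 partners of each library, 75.9% ± 22.6 of wide and 28.4% ± 18.0 of narrow intervals recurred (SD, n = 3 libraries). The difference was 47.6 ± 8.06 percentage points, positive in 3 of 3 libraries, with an exact two-sided permutation test over libraries giving p = 0.25, the smallest value that 3 libraries allow. The same p, with and without adjustment, was found for spacing and position below, which makes 3 such comparisons. Without replicate 2, which stood apart in width, the difference was 62.5 points. The libraries share their pairs and are not independent in this measure. Wilson intervals cover counting error only, as if intervals were independent.

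A wide interval offers a larger target than a narrow one, so the search was repeated from the midpoint of each interval alone. Wide intervals then recurred in 92.6%, 88.9%, 29.4%, 49.2%, 67.7% and 93.5% of cases in the 6 pairs (replicate 1 in 2 and in 3, replicate 2 in 1 and in 3, replicate 3 in 1 and in 2), and narrow ones in 56.2%, 28.4%, 4.99%, 12.6%, 9.92% and 43.1%. The difference was 44.4 ± 12.3 points (SD, n = 3). Genes with wide intervals also hold many narrow ones. Against the narrow intervals of the same genes, the difference was 38.3 ± 1.96 points, positive in 3 of 3 libraries.

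**Figure D3:**
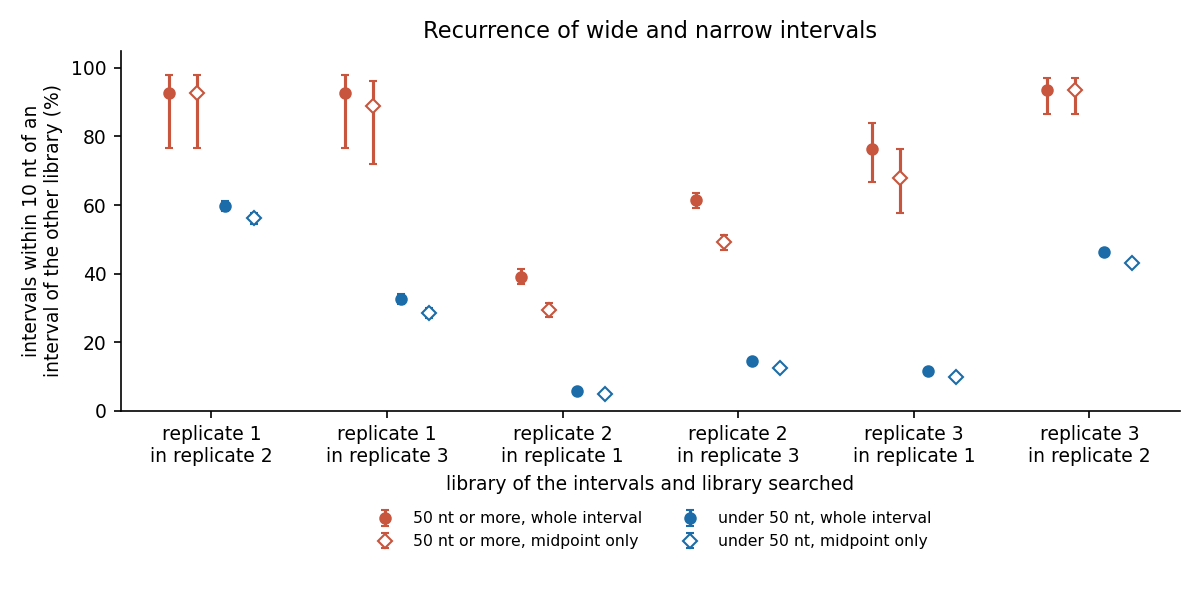
Percentage of intervals within 10 nt of an interval of the other library (y axis) for the 6 ordered pairs (x axis), for wide (red) and narrow (blue) intervals, with the whole interval (filled) or its midpoint alone (open) as the query. Bars are 95% Wilson intervals. Wide intervals lie above narrow ones in every pair, at 92.6% against 59.7% for replicate 1 in replicate 2 and 39.1% against 5.81% for replicate 2 in replicate 1.

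The step was not confined to the threshold of 50 nt. In replicate 2, recurrence in replicate 3 was 11.3% for intervals under 10 nt, 10.4% at 10 to 24 nt, 14.6% at 25 nt and 30.4% at 26 to 49 nt. Above the threshold it was 51.1% at 50 to 59 nt, 59.7% at 60 to 74 nt, 70.1% at 75 to 99 nt and 86.9% at 100 nt or more. Recurrence in replicate 1 went in the same order, with 4.19% under 10 nt and then from 3.73% to 60.2%. From the midpoint the gain levelled off, with 44.1%, 51.97%, 50.8% and 56.6% in replicate 3 for the last 4 classes. In replicates 1 and 3 the class of exactly 25 nt, the most frequent width, recurred least. Of its 2073 members in replicate 1, 23.0% recurred in replicate 3, against 36.0% at 10 to 24 nt and 78.5% at 26 to 49 nt. Compared with narrow intervals of 30 to 49 nt only, wide intervals still recurred more, by 17.3 ± 9.94 points (SD, n = 3). The lowest difference of a library was 6.39 points, and replicate 1 in replicate 2 gave 92.6% against 91.4%. Here the Wilson intervals overlapped for replicate 1 in replicates 2 and 3 and for replicate 3 in replicate 2.

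**Figure D4:**
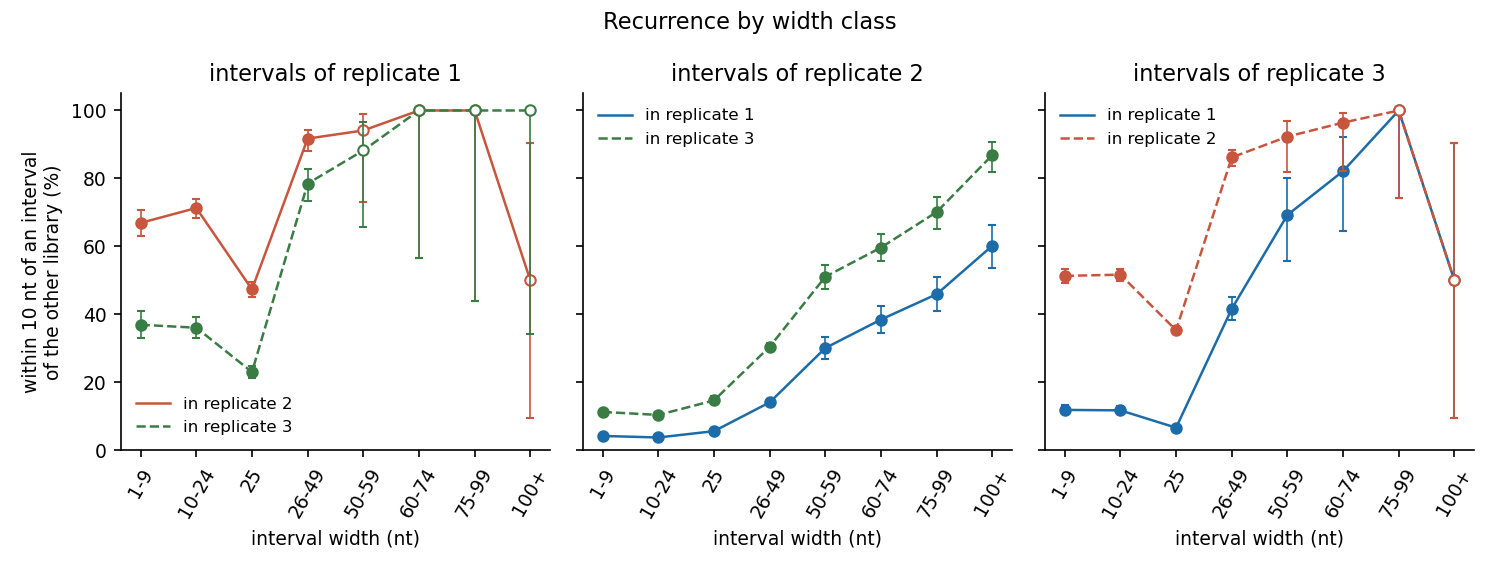
Percentage of intervals within 10 nt of an interval of another library (y axis) by width class (x axis, nt), with 1 panel for the intervals of each library and 1 line for each library searched. Bars are 95% Wilson intervals and open points are classes of under 20 intervals. In replicate 2 the share in replicate 3 is 11.3% under 10 nt and then climbs from 10.4% to 86.9%, and in replicates 1 and 3 it is lowest at 25 nt.

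What lay opposite a wide interval depended on which library was searched. In replicate 2, the widest interval near a wide interval of replicate 1 had a median width of 83 nt, against 42 nt near a narrow one. For replicate 3 these medians were 76 and 33 nt. Replicate 1 searched in replicate 3 gave 49 and 25 nt, and replicate 3 in replicate 1 gave 30 and 25 nt. Opposite wide intervals of replicate 2, the medians were 25 nt in replicate 1 and 25 nt in replicate 3, the same as opposite narrow ones. A wide interval has more room for partners, among which the widest was taken. With the narrowest partner, the mean difference of the medians over the pairs was 13 nt, against 18.8 nt with the widest. Wide partners in replicate 2 were found for 22 of the 27 wide intervals of replicate 1 (81.5%, background over all intervals 24.7%) and 70 of the 93 of replicate 3 (75.3%, background 14.8%). Between replicates 1 and 3, 12 of 27 and 12 of 93 had a wide partner (44.4%, background 2.43%, and 12.9%, background 0.351%). In the opposite direction, 22 and 70 of the 1932 wide intervals of replicate 2 had a wide partner in replicates 1 and 3 (1.14% and 3.62%, backgrounds 0.0949% and 0.357%).

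Some wide intervals lay over several separate intervals elsewhere. A wider interval has more room for several partners, and the part of this in the shares below was not tested. At least 2 partners in replicates 2 and 3 were found for 25.9% and 44.4% of those of replicate 1, against 14.4% and 6.04% of narrow ones. For replicate 2 the shares were 9.68% in replicate 1 and 21.6% in replicate 3, against 0.342% and 1.36%. For replicate 3 they were 23.7% in replicate 1 and 34.4% in replicate 2, against 1.28% and 11.5%. The most partners, 6, were found in replicate 2. The widest of all, FBgn0035802 at chr3L:7598264-7598548 (285 nt, plus strand), had 6 partners in replicate 1, of 3 to 25 nt, and 6 in replicate 3, of 9 to 40 nt. FBgn0261836, at chr2L:5206783-5207002 (220 nt, plus strand), had 4 partners in replicate 1, of 25 to 32 nt, and 3 in replicate 3, of 13 to 38 nt. In FBgn0051324, at chr3R:21932756-21932956 (201 nt, plus strand), the 2 partners in replicate 1 measured 52 and 25 nt and those in replicate 3 measured 8 and 6 nt. FBgn0263930 (192 nt) had 5 partners of 5 to 18 nt in replicate 1 and 3 of 25 nt in replicate 3. Last of the 5 widest, FBgn0014141 (185 nt) had none in replicate 1 and 2 in replicate 3, of 25 and 2 nt. Intervals of the other libraries covered 14.2% (replicate 1) and 25.1% (replicate 3) of the nucleotides of the wide intervals of replicate 2. In contrast, replicate 2 covered 84.2% and 83.9% of those of replicates 1 and 3. The lists differ in size, with summed widths of 84473, 642273 and 234180 nt in replicates 1, 2 and 3. The wide intervals of replicate 2 alone sum to 138159 nt. The part of list size in these shares was not tested, and coverage of narrow intervals was not measured.

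Among the 5 widest intervals of each smaller library, 2 of replicate 1 and 4 of replicate 3 faced an interval of at least 90 nt in replicate 2. FBgn0264090, the widest of replicate 1 (126 nt), faced 166 nt. FBgn0000719 (94 nt, at chrX:22256054-22256147, minus strand) faced intervals of 94 and 10 nt. In replicate 3, FBgn0000559 (108 nt) faced 102 and 2 nt, FBgn0000568 (98 nt) 171 and 91 nt, FBgn0261545 (94 nt) 93, 45 and 6 nt and FBgn0052423 (90 nt) 99 nt. The other 4 lay on the XHet scaffold and are given with the chromosomes.

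Within genes, wide intervals lay towards the 5′ end. The position of an interval's midpoint was taken along the stretch of the gene, introns included, between the outermost interval edges of the 3 libraries, with 0 at the 5′ edge. Genes with at least 5 intervals in the library were used, which kept 13, 1760 and 79 wide intervals. In the first 20% of the stretch lay 10 of 13 in replicate 1 (76.9%, 95% Wilson interval 49.7 to 91.8), 1084 of 1760 in replicate 2 (61.6%, 59.3 to 63.8) and 53 of 79 in replicate 3 (67.1%, 56.1 to 76.4). The background over all intervals was 42.8%, 36.9% and 32.7%, and the narrow intervals of the same genes gave 42.9%, 35.4% and 35.5%. The Wilson intervals of wide and same-gene narrow intervals did not overlap in replicates 2 and 3, but did in replicate 1.

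The mean was 68.5% ± 7.77 for wide and 36.7% ± 5.24 for all narrow intervals (SD, n = 3), a difference of 31.9 ± 4.75 points, positive in 3 of 3 libraries (exact two-sided permutation test over libraries, p = 0.25, the smallest possible). Against narrow intervals of the same genes it was 30.6 ± 4.01 points, and without replicate 2 the difference to all narrow ones was 34.6 points. A wide interval can itself form an edge of the stretch. With the stretch taken from narrow intervals only, the difference was 31.8 points, and from the other libraries only 28.1 points. The last 20% showed the opposite order. It held 0 of 13 wide intervals in replicate 1, which allows a share of up to 23.1% (3 counts of the total), 26.5% in replicate 2 and 18.99% in replicate 3, against 18.8%, 47.4% and 40.2% of the narrow ones of the same genes. The middle 60% held 23.1%, 11.9% and 13.9% of wide intervals in replicates 1, 2 and 3. It held 38.4%, 17.2% and 24.3% of the narrow ones of the same genes.

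As with recurrence, position varied with width on both sides of 50 nt. In replicate 2 the first 20% held 30.9% of intervals under 10 nt, 41.9% of those of 25 nt, 47.4% at 26 to 49 nt, 58.8% at 50 to 74 nt, 66.2% at 75 to 99 nt and 70.1% at 100 nt or more. In the other libraries the class of 25 nt was the lowest of those under 50 nt, at 35.2% in replicate 1 and 28.5% in replicate 3 against 39.7% and 31.4% under 10 nt, and the class of 26 to 49 nt reached 68.8% and 58.2%. Compared with narrow intervals of 30 to 49 nt the difference was 8.29 points, with 76.9% against 71.7%, 61.6% against 49.1% and 67.1% against 60% in replicates 1, 2 and 3. When intervals were placed by their order in the gene in place of their distance, the difference was 7.28 points. The first 20% by order held 30.9% against 18.98% in replicate 2 and 32.9% against 19.3% in replicate 3. It turned in replicate 1, with 15.4% of wide against 18.99% of narrow intervals.

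**Figure D5:**
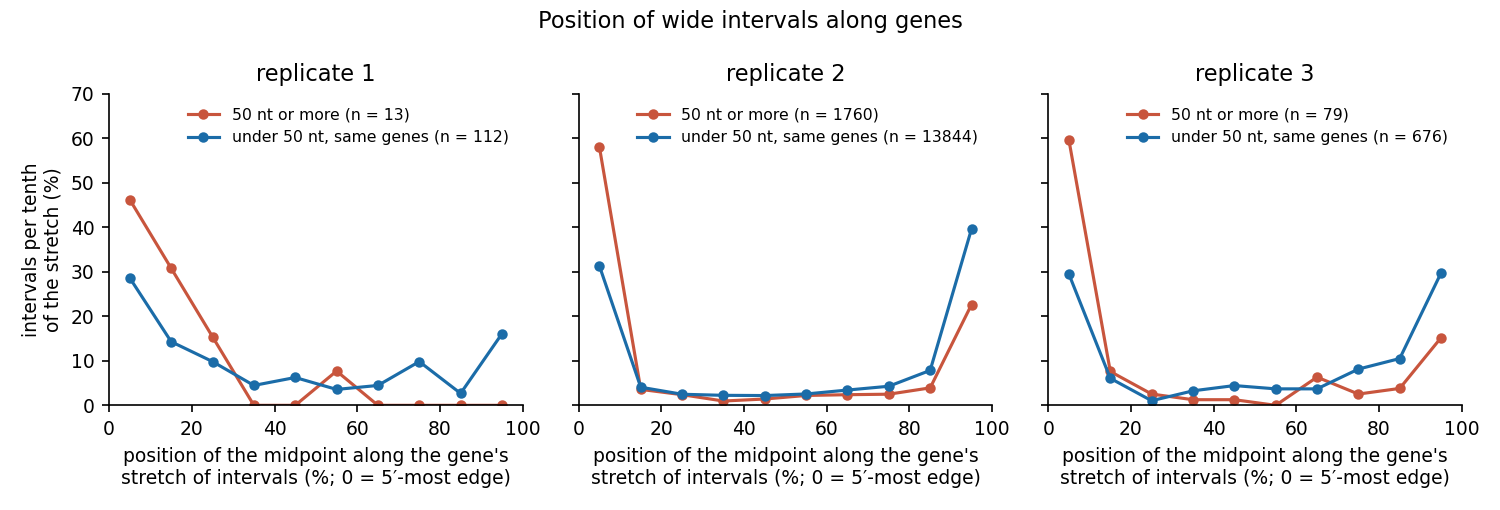
Percentage of intervals (y axis) along their gene's stretch of intervals in steps of 10% (x axis, percent of the stretch from the 5′-most edge), for wide intervals (red) and narrow intervals of the same genes (blue) in each library. Wide intervals peak in the first step at 46.2%, 58.0% and 59.5% in replicates 1, 2 and 3, against 28.6%, 31.3% and 29.4% of narrow ones, and narrow ones are higher in the last step.

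Among the regions with wide intervals in all libraries, most lay near the 5′ edge. FBgn0041604, FBgn0262582, FBgn0259240 and FBgn0264090 had theirs at 0.132%, 0.207%, 0.235% and 0.513% of stretches of 38900, 48791, 128907 and 98119 nt. FBgn0000504 had its region at 10.4%, FBgn0051044 at 10.99% and 16.0% of a short stretch of 2616 nt, and FBgn0264357 at 22.6%. FBgn0000064 had its region near the 3′ edge, at 99.3%. The region of FBgn0041604 itself formed the 5′ edge of its stretch, and that of FBgn0000064 the 3′ edge. Thus 7 of 9 regions lay in the first 20%, and these regions are among the wide intervals counted above.

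Position and recurrence moved together, so recurrence was also set out by position. Within the first 20%, wide intervals recurred more than narrow ones in 5 of 6 pairs. The exception was replicate 1 in replicate 2, with 80.0% of 10 wide against 86.9% of 696 narrow intervals. In replicate 2, 66.8% of 1084 wide intervals of the first 20% recurred in replicate 3, against 18.2% of 9185 narrow ones. Outside it, the shares were 56.4% of 676 and 16.0% of 16892. The mean difference over libraries was 30.9 points in the first 20% and 51.8 points outside it, where replicate 1 had only 3 wide intervals, all recurring. In replicate 2, with most of the wide intervals, the order was the opposite in both pairs. The difference was 35.5 points in the first 20% and 28.3 points outside it in replicate 1, and 48.6 and 40.3 points in replicate 3.

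Wide intervals also had closer neighbours in their own library. Another interval of the same strand lay within 50 nt of 11 of 27 wide intervals in replicate 1 (40.7%, background 22.8%), 1541 of 1932 in replicate 2 (79.8%, background 63.6%) and 51 of 93 in replicate 3 (54.8%, background 27.6%). Narrow intervals gave 22.6%, 62.7% and 27.4%. The difference was 20.9 ± 5.69 points, positive in 3 of 3 libraries (SD, n = 3, exact two-sided permutation test over libraries, p = 0.25, the smallest possible). Without replicate 2 it was 22.8 points. The median gap to the nearest neighbour was 61, 12 and 43 nt for wide and 353, 19 and 228 nt for narrow intervals in replicates 1, 2 and 3. Gaps were shortest in replicate 2, the library with most intervals, whichever the class. Genes with a wide interval held more intervals of any width, as given below. Spacing was not compared with narrow intervals of the same genes.

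Genes with a wide interval numbered 1157. Replicates 1, 2 and 3 had 24, 1148 and 79 of them, or 1.64%, 18.0% and 2.39% of their genes with any interval. All 24 genes of replicate 1 also had a wide interval in replicate 2, where they were 2.09% of the genes with one. Of the 79 genes of replicate 3, 70 had one in replicate 2 (88.6% and 6.10% of the lists). Replicates 1 and 3 shared 11 genes (45.8% and 13.9%), and all 11 were also in replicate 2. Genes with a single wide interval made up 91.7%, 59.7% and 83.5% of the lists. In replicate 2, 463 genes had at least 2, 28 had at least 5, and the most was 10.

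Genes with a wide interval held more intervals of any width, with a median of 4, 11 and 8 in replicates 1, 2 and 3 against 2, 2 and 2 in the other genes. A gene with more intervals has more chances of a wide one, so the share of wide among all intervals was followed over classes of genes. In replicate 2 it was 1.36% in genes with a single interval, 2.39% in genes with 2 to 4, 4.94% with 5 to 9, 6.98% with 10 to 19 and 6.74% with 20 or more. Replicate 3 went from 0.202% to 1.43% over the same classes, with 2 and 11 wide intervals in the outer ones. Transcript abundance and gene length were not measured here.

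Wide intervals by gene followed different leaders in each library. FBgn0016977 on 2L led replicate 2 with 10 wide intervals of 58 in all, while replicates 1 and 3 had 13 and 28 intervals there, none wide and at most 47 and 43 nt. FBgn0001234 on 3R had 0, 9 and 2 wide intervals of 21, 117 and 34 in replicates 1, 2 and 3. FBgn0085432 on chromosome 4 and FBgn0001624 on X had 8 wide intervals each in replicate 2 alone, of 76 and 38. FBgn0000568 on 3L had 0, 7 and 2. FBgn0010575 on 2R tied for the most in replicate 3, with 0, 3 and 3. A gene prominent in replicate 2 was thus often without a wide interval in replicate 1, which held 27 in all.

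The 11 genes with wide intervals in all libraries were led by FBgn0085813 on XHet, with 3, 5 and 2 wide intervals of 51, 17 and 25 (4.50% ± 5.80 of a library's wide intervals, SD, n = 3). FBgn0051044 followed with 2, 4 and 2 of 8, 14 and 13 (3.25% ± 3.73), and FBgn0085765 on XHet with 1, 2 and 3 of 4, 4 and 3. FBgn0259240 and FBgn0262582 each had 1, 6 and 1. FBgn0000504 had 1, 1 and 2, FBgn0041604 had 1, 2 and 1 and FBgn0264357 had 1 in each. FBgn0000064, FBgn0001316 and FBgn0264090 had 1, 3 and 1 each. For most a single interval of replicate 1, worth 3.70% of its wide intervals, made up the largest part of the mean, and their order was not resolved beyond the SD.

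RefSeq's gene list for the later Release 6 genome gave 1 symbol for 6 of the 1157 genes (0.519%). All 6, with 7 wide intervals, had them in replicate 2 alone, as did 1065 of the 1157 genes. LanA, which encodes a laminin alpha chain found in basement membranes, had an interval of 136 nt at chr3L:6210987-6211122 on the minus strand, at 0.481% of its stretch, with 3 partners in replicate 1 and 1 in replicate 3. In Treh, which encodes trehalase, an interval of 137 nt lay at 0.614% of the stretch, with 1 partner in each other library. Meltrin, of the ADAM protease family, had 77 nt at 0.125%, again with 1 partner in each. The MAGUK scaffold gene metro had 95 and 68 nt at 2.18% and 3.86%. Thus 5 of the 7 intervals lay near the 5′ end. Those of LanA, Treh and Meltrin themselves formed the 5′ edge of their stretches, which fixes their positions near it. Among all wide intervals of replicate 2 in genes with at least 5 intervals, 61.6% lay in the first 20% of the stretch. Swim, which encodes a secreted Wingless-interacting protein, had 95 nt at 97.3%, with 2 partners in replicate 1 and 1 in replicate 3. Nasp, a histone chaperone gene, had 84 nt at 98.7%, with none in replicate 1 and 1 in replicate 3. These genes are named because the list held a symbol for them, whatever their values. None of the 36 genes listed for the piRNA pathway, germline stem cell regulation and translation initiation could be matched to an identifier, so these lists gave no count.

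By chromosome, no class passed a test. The shares of X, 2R and chromosome 4 differed from those of narrow intervals in the same direction in each library. X held 25.9%, 23.2% and 25.8% of the wide intervals of replicates 1, 2 and 3, against 23.8%, 21.2% and 23.2% of narrow ones, a difference of 2.26 ± 0.337 points (SD, n = 3) that was positive in 3 of 3 libraries. It depended on the width threshold, with 0.589 ± 1.197 points at 40 nt (exact permutation test over libraries, p = 0.75) and 6.61 ± 8.55 points at 75 nt (p = 0.5), where it was not of 1 sign in all libraries. Chromosome arm 2R held 3.70%, 18.3% and 9.68% of wide against 17.2%, 18.6% and 18.3% of narrow intervals, lower in 3 of 3, with a difference of -7.48 ± 6.68 points. That of arm 3R was 5.18 ± 6.02 points, higher in 2 of 3, and that of 2L -2.72 ± 3.17. On 3L the difference was -0.71 ± 1.59 points. Without replicate 1, which had a single wide interval on 2R and 8 on 3R, those of 2R and 3R were -4.47 and 2.24 points. Without replicate 2 they were -11.1 and 8.26 points. Of 8 chromosome classes tested by the exact permutation test over libraries, none passed, at unadjusted p of 0.25 to 0.75 and Benjamini-Hochberg adjusted p of 0.67 to 0.75, and none could have with 3 libraries. In replicate 2, with 1932 wide intervals, the arms 2L, 2R, 3L, 3R and X held 17.7%, 18.3%, 17.8%, 20.03% and 23.2%.

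Chromosome 4 held 0, 47 and 1 wide intervals, which were 0% (0 of 27 allows up to 11.1%), 2.43% and 1.08%, against 3.71%, 2.61% and 2.85% of the narrow ones. The difference was -1.89 ± 1.77 points (SD, n = 3), lower in 3 of 3 libraries. Limits for a count of 0 are 3 counts over the total. Mitochondrial transcripts held 0, 0 and 1, and 0 of 1932 in replicate 2 allows a share of up to 0.155%, against 0.310% of its narrow intervals. The wide one, in replicate 3, was 55 nt long in FBgn0013688.

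Scaffolds of heterochromatin without a place on the arms (Het) held 4 of the 27 wide intervals of replicate 1 (14.8%), 13 of 1932 in replicate 2 (0.673%) and 5 of 93 in replicate 3 (5.38%), against 2.42%, 0.823% and 0.751% of narrow ones. Without replicate 1 the mean difference fell from 5.62 to 2.24 points. All wide Het intervals of replicates 1 and 3 lay on XHet, in FBgn0085813 and FBgn0085765, on the plus strand. In FBgn0085813, replicates 1 and 3 had wide intervals of 121 and 165 nt around the same place, from 190073 to 190193 and from 190037 to 190201. Replicate 2 had no interval there. The interval of 87 nt of replicate 1, from 191295 to 191381, faced, among others, one of 53 nt with the same 3′ edge in replicate 3, and intervals of 29, 9 and 4 nt in replicate 2. The latter library had its own 5 wide intervals, of 52 to 108 nt, further 3′ between 192189 and 193421. In FBgn0085765 the interval from 184105 to 184188 was the same to the nucleotide in replicates 1 and 3, 84 nt wide, and faced one of 47 nt in replicate 2. Replicates 2 and 3 both had a wide interval ending at 184944, of 65 and 64 nt. Nothing in the sources used here states how reads matching several copies were assigned, and the part of this in the values was not tested.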

How the data were processed

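Each of the 3 iCLIP libraries was deposited by the authors as a list of intervals with chromosome, start, end, strand, FlyBase gene identifier and a score of 0 in every line, so this deposited score carries no information. Coordinates are the only other values (positions, in nt). The tools CASAVA 1.4 and TopHat2 2.0.13 and the build dm3 are named per the submitters' processing notes. Not given in the sources used here are the interval caller, its threshold and whether the 5-nt random barcode served to collapse reads. Depth in reads is unknown. Each library has a list of its own.

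Lines of the same position and strand (21, 333 and 113) were counted once, except in counts per gene. Width is end minus start. Shares have 95% Wilson intervals. Libraries were compared with an exact sign-flip permutation test, two-sided. Named items followed a rule: genes with wide intervals in all libraries, the 5 widest intervals of each library, regions wide in all libraries, genes with a symbol in the table, and 3 gene lists. Leading genes per library were added after their values were seen. The members and lists were chosen with earlier results of these data known, and the comparison of positions in genes was added after the data were seen. Versions were matplotlib 3.10.9, scipy 1.17.1, pandas 2.3.3, numpy 2.4.6 and Python 3.11.15. Searches for overlaps were checked on simulated intervals.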

Additional observations from a re-analysis of the deposited data

How the results depend on the processing

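Of 126 alternative values, 5 changed sign and 7 counts of common genes moved, as given here. The tests over 3 libraries cannot pass a threshold of 0.05, so only directions could change. The recurrence difference (47.6 points) stayed positive in 17 alternatives, from 17.3 (against 30 to 49 nt) to 62.5 points (without replicate 2), and was 31.2 from the 5′ edge alone. The position difference (31.9 points) stayed positive in 14, from 7.28 to 39.3, all added after the data were seen. Spacing stayed between 17.6 and 29.7 points in 8. The mean share of wide intervals, 2.29%, was 0.737% without replicate 2. The 11 common genes became 2 with at least 2 wide intervals in each library, 83 in at least 2 libraries, and 42, 5 and 1 with thresholds of 40, 60 and 75 nt, which follows from these rules. Leaving out libraries gave 11 to 70, with 70 without replicate 1 and 24 without replicate 3. Differences that reversed were small or thinly filled. That of 3L became 1.203 points at 40 nt and, leaving out each library in turn, -1.55 to 0.033. That of 3R became -4.78 at 75 nt, where replicates 1 and 3 had 5 and 13 wide intervals. The mitochondrial difference (-0.26) became 0.0064 against 30 to 49 nt and, on leaving out libraries, -0.63 to 0.085. No paired analysis was possible because the samples form 1 group, so that replicate numbers match no samples across groups. Wide and narrow intervals were compared within each library.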

Other observations

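Wide intervals shared an exact edge with an interval of another library more often than narrow ones did, at either end and in each of the 6 ordered pairs. Of the 1932 wide intervals of replicate 2, 3.31% shared a 5′ edge and 4.19% a 3′ edge with replicate 3, against 1.21% and 1.35% of narrow ones. In replicate 3, 3.23% and 14.0% of 93 wide intervals did so with replicate 1, against 1.03% and 1.14% of narrow ones. The 3′ edge was shared more often than the 5′ edge in 5 of 6 pairs in both classes, but the size of this excess varied. For replicate 1 in replicate 3 the shares were 22.2% (3′) and 3.70% (5′) of 27 wide intervals, and 3.56% and 3.06% of narrow ones. For replicate 3 in replicate 2 both edges stood at 9.68% of wide intervals, with 4.54% (3′) and 3.99% (5′) of narrow ones. No test was made of these differences, and the pairs share libraries.

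Inside the wide intervals of replicate 2, midpoints of intervals of replicate 3 were spread around the centre. In 5 equal parts from the 5′ to the 3′ edge lay 14.1%, 23.7%, 25.4%, 24.8% and 12.0% of 1566 midpoints. The plus strand held 66.7%, 52.9% and 59.1% of wide intervals in replicates 1, 2 and 3, against 50.6%, 49.2% and 49.2% of narrow ones, which was also not tested. Positions assigned to several genes made up 0%, 0.621% and 1.08% of wide and 0.530%, 0.929% and 0.940% of narrow intervals.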
